A study of Mus musculus with 6 samples.

Results

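Tuft cells are rare secretory cells of the intestinal epithelium, and 9 genes used to recognise them were followed in tumor-derived organoids of 3 Trp53 genotypes. The members are Dclk1, Trpm5, Pou2f3, Gfi1b, Avil, Il25, Alox5, Il17rb and Rgs13. They were taken by symbol from a deposited table of 36172 genes, in which all 9 were listed. In these organoids 7 of the 9 stood at the lowest value the table holds in all 6 libraries, Pou2f3 rose just above it in 1 library, and Avil was the only member at a level that could be compared between genotypes.

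Tuft cells carry a tuft of long microvilli at their apical surface and sense the contents of the gut with a signalling chain shared with taste cells, which ends in opening of the Trpm5 channel. The transcription factor Pou2f3 is required for the lineage. On contact with parasites the cells release the cytokine IL-25 and cysteinyl leukotrienes, which act on type 2 innate lymphoid cells, and IL-13 from those cells in turn increases the number of tuft cells. In mouse intestinal tumors Dclk1 is a widely used mark of tuft-like cells. In bulk RNA of this kind, fewer cells of a type and less RNA per cell cannot be told apart.

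The organoids were grown from small intestinal tumors of C57BL/6 mice aged 15 to 20 weeks. All 3 groups carried Apc(D716), a truncating Apc mutation at codon 716, with loss of the remaining wild-type allele, and differed at Trp53. The Trp53+/+ group had wild-type alleles, and the Trp53flox/flox group had the unrecombined floxed allele, which is functionally null. In the Trp53R270H/R270H group tamoxifen had recombined that allele through villin-CreER, a Cre driven in intestinal epithelium, so that both alleles gave the missense protein p53 R270H. Trp53R270H/R270H and Trp53flox/flox thus differed in tamoxifen and Cre activity as well as in the allele, and these cannot be told apart. Whether the Trp53+/+ mice were given tamoxifen is not stated in the sources used here. There were 2 libraries per genotype, and p-values measure the spread between those libraries only. Expression was given in rpkm, which is reads counted over a gene divided by its length in kilobases and by the mapped reads of the library in M (1e6 reads). No value was under 1 rpkm, so that 1 rpkm is a floor and says only that a gene was at or below it.

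The Trp53flox/flox labels were checked on Trp53 itself, which measured 75.9 and 74.3 rpkm in Trp53+/+, 1.73 and 2.48 rpkm in Trp53flox/flox and 72.8 and 82.7 rpkm in Trp53R270H/R270H. The Trp53+/+ values lay between those of Trp53R270H/R270H, so this check could not tell those labels apart. Depth was not given and was estimated at 44.2 to 47.4 M mapped reads in 5 libraries, and it could not be settled in Trp53flox/flox replicate 1. That library had the fewest genes above the floor (10718, against up to 11618). The correlation of log2 values between replicates was 0.932 in Trp53flox/flox, 0.996 in Trp53+/+ and 0.993 in Trp53R270H/R270H. A correlation cannot tell which library of a pair departed. Trp53flox/flox replicate 2 had values apart from the others as well. Lyz2 measured 5.67 rpkm there and 1 rpkm in all other libraries, and Cdx1 4.73 rpkm there and at least 19.76 rpkm in the others. The results for Avil and for the genes of the wider list are given with and without replicate 1, and those for Avil also without replicate 2.

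On the mouse genome (GRCm38, the assembly of mm10, GENCODE M21) the members lie on 8 chromosomes. Avil, which encodes advillin, an actin-binding protein of the villin family, spans chromosome 10 from 127000709 to 127020994 on the plus strand. Trpm5 spans chromosome 7 from 143069153 to 143094642 on the minus strand, and Gfi1b spans chromosome 2 from 28609450 to 28621982 on the minus strand. RefSeq promoters of GRCm38.p6 were matched by symbol for 7 members. The 250 bases before the start of Avil, the member with a measurable level, are shown with those of Trpm5 and Gfi1b, a channel gene and a transcription factor gene that stayed at the floor. Each is written 5′ to 3′ on the strand of the gene, and capitals mark the letters ATGCAAA or, on the other strand, TTTGCAT, which are part of the octamer recognised by POU factors.
Avil, chr10:127000459-127000708, plus strand: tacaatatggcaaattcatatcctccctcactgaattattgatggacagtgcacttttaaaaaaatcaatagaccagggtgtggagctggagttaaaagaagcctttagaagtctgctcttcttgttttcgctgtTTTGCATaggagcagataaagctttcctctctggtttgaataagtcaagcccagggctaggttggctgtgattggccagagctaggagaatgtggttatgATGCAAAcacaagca
Trpm5, chr7:143094643-143094892, minus strand: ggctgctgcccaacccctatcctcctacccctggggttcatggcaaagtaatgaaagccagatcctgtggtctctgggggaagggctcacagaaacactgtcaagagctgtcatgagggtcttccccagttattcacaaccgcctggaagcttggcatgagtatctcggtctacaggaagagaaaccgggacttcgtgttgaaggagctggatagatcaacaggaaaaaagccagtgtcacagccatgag
Gfi1b, chr2:28621983-28622232, minus strand: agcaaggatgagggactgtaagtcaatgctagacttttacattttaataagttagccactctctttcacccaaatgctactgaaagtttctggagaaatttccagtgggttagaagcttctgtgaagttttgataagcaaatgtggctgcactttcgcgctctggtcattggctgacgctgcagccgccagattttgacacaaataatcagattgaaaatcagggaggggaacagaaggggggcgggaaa
The whole octamer, ATGCAAAT or ATTTGCAT, was in 0 of the 8 member promoters and in 1.6% of 32841 RefSeq promoters cut to the same length. The 7-letter part, which lies within the octamer and was looked for after the Avil sequence had been seen, was found 2 times upstream of Avil, once on each strand, and in no other member promoter. Of all promoters 4.13% held it at least once and 0.247% at least 2 times. The windows differed in composition, from a GC content of 36.0% upstream of Rgs13 to 72.0% upstream of Il17rb, against a median of 52.4% over all promoters. Avil had 42.0% GC and 1 CpG dinucleotide, Trpm5 52.8% and 4, and Gfi1b 44.4% and 5. These matches describe letters and are not evidence of binding.

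Among the regulators of the lineage, Pou2f3 measured 1.21 rpkm in Trp53+/+ replicate 1 and stood at 1 rpkm in the other 5 libraries. It lies on chromosome 9 from 43123939 to 43210369 on the minus strand. Gfi1b, a zinc finger repressor, was listed at 1 rpkm in all 6 libraries. A difference between genotypes could thus not be seen for either factor, since values under 1 rpkm were not recorded.

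Dclk1, a microtubule-associated kinase, and Trpm5, the cation channel of taste-like signalling, were also at 1 rpkm in all 6 libraries. So was Rgs13, a regulator of G protein signalling, on chromosome 1 from 144138654 to 144177372. Dclk1 lies on chromosome 3 from 55242364 to 55539068 and has the longest exons of the set, 15296 bases over all its annotated transcripts. At the depths estimated, 1 rpkm over that length is 676 to 725 reads, so that its floor does not mean a lack of reads.

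The members tied to IL-25 and leukotriene signalling were at the floor as well. Il25, the cytokine, on chromosome 14 from 54932695 to 54935837, Il17rb, a subunit of its receptor, on chromosome 14 from 29996135 to 30008896, and Alox5, which starts leukotriene synthesis, on chromosome 6 from 116410077 to 116461178, were each listed at 1 rpkm in all 6 libraries. Il25 has the shortest exons, 1064 bases, over which 1 rpkm is 47 to 50 reads. For Trpm5, Gfi1b, Alox5, Il17rb and Rgs13 this number lay between 73 and 303 reads, and for Pou2f3 it was 136 to 146. The lengths used by the authors' software may differ from these.

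Of the 54 values of the 9 members, 48 were thus at the floor and 6 above it. A floor in all 6 libraries was common in the table and held for 65.7% of its genes. The summed level of the members without Avil was 8.21 rpkm in Trp53+/+ replicate 1 and 8 rpkm in each of the others, which is the floor of 8 genes. A difference between genotypes in these 8 genes was not detectable, since whatever lies under 1 rpkm was not recorded.

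**Figure D1:**
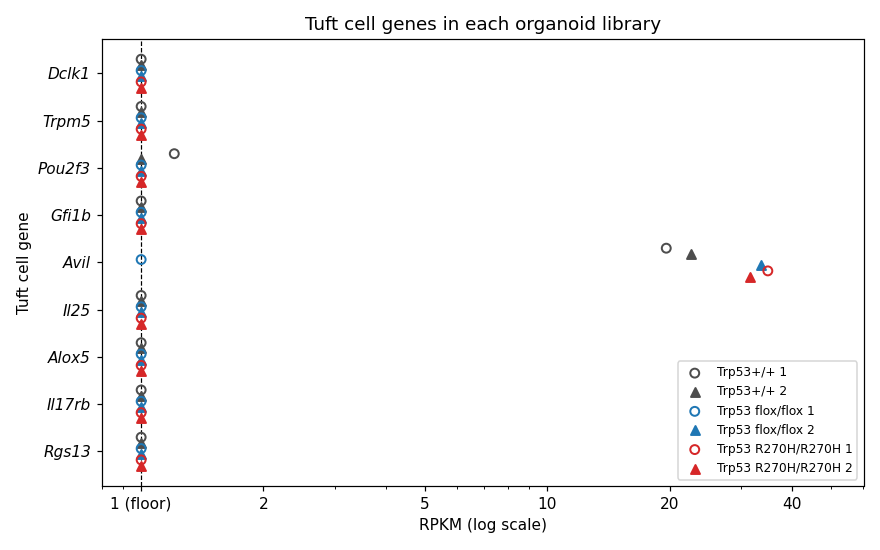
Expression of the 9 tuft cell genes in rpkm (log axis) in each of the 6 libraries, with colour for genotype, symbol shape for replicate and a dashed line at the floor of 1 rpkm. All points sit on the floor except Pou2f3 at 1.21 rpkm in Trp53+/+ replicate 1 and Avil, which lies between 19.6 and 34.9 rpkm in 5 libraries and on the floor in Trp53flox/flox replicate 1.

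Avil stood far from the other members. It measured 19.6 and 22.6 rpkm in Trp53+/+, 1 and 33.5 rpkm in Trp53flox/flox, and 34.9 and 31.6 rpkm in Trp53R270H/R270H. Both Trp53R270H/R270H libraries were above both Trp53+/+ libraries, while Trp53flox/flox replicate 1 was below all other libraries and replicate 2 lay between the Trp53R270H/R270H libraries. The means were 21.1±2.13 rpkm in Trp53+/+, 17.3±23.0 rpkm in Trp53flox/flox and 33.2±2.34 rpkm in Trp53R270H/R270H (mean±s.d., n=2 each).

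The Trp53R270H/R270H mean was 1.57 times the Trp53+/+ mean. Libraries that did not overlap in this direction were found for 44.2% of the 10042 genes that reached 4 rpkm in at least 1 library, and a ratio of means at least as large for 8.31%. On the log2(rpkm+1) scale, in a limma fit of all 6 libraries, Avil was higher in Trp53R270H/R270H by 0.63 (s.e. 1.28) with a Benjamini-Hochberg adjusted p of 0.775. Against Trp53+/+ the Trp53flox/flox difference was −1.41 (s.e. 1.28, limma adjusted p=0.455), and Trp53R270H/R270H against Trp53flox/flox gave 2.04 (s.e. 1.28, limma adjusted p=0.269). Avil, the 1 member tested, was therefore called in 0 of 3 comparisons, and its unadjusted limma p-values were 0.641, 0.318 and 0.168 in that order. Over all genes tested, 12.2% were called between Trp53R270H/R270H and Trp53+/+, 11.3% between Trp53flox/flox and Trp53+/+, and 24.6% between Trp53R270H/R270H and Trp53flox/flox.

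Without Trp53flox/flox replicate 1 each of the 3 Avil comparisons changed its call or its direction. The difference between Trp53R270H/R270H and Trp53+/+ was then the same 0.63 with a standard error of 0.091 and a limma adjusted p of 0.00492, in a fit that called 57.1% of all genes. With both Trp53flox/flox libraries left out the limma adjusted p was 0.00488, with 57% of genes called. Without Trp53flox/flox replicate 2 alone Trp53R270H/R270H also differed from Trp53+/+ by 0.63 (s.e. 0.0944), so leaving out either library narrowed the standard error. In the fit of all 6 libraries that error came from a spread shared by the genotypes, the Trp53flox/flox pair included. Without replicate 1 the Trp53flox/flox difference turned to 0.65 above Trp53+/+ (s.e. 0.11, limma adjusted p=0.0129, with 40.4% of genes called), and Trp53R270H/R270H differed from Trp53flox/flox by −0.01 (s.e. 0.11, limma adjusted p=0.928, with 53% called). Without Trp53flox/flox replicate 2 the same comparisons gave −3.46 (limma adjusted p=0.000193, 68.5% called) and 4.10 (limma adjusted p=0.000172, 72.3% called). In these fits a lone Trp53flox/flox library was assumed to vary like the other genotypes, and an exact permutation test of 2 libraries against 2 cannot go below p=0.333.

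The floor value of Avil in Trp53flox/flox replicate 1 was not shared by the genes next to it. Within 100 kb of the start of Avil 11 other protein-coding genes were listed, of which 8 were above the floor in all 6 libraries and 3 at the floor in all. For those 8 genes the level in Trp53flox/flox replicate 1 was 0.766 to 1.56 times the mean of the other 5 libraries. Ctdsp2, a phosphatase gene that ends 733 bases before the start of Avil on the same strand, measured 46.1 and 43.1 rpkm in Trp53+/+, 45.3 and 51.9 rpkm in Trp53flox/flox and 53.1 and 55.3 rpkm in Trp53R270H/R270H.

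Tsfm, which encodes a mitochondrial translation elongation factor, is annotated on the opposite strand and overlaps Avil over 9423 bases. It measured 12.4 and 11.0 rpkm in Trp53+/+, 18.2 and 17.6 rpkm in Trp53flox/flox and 7.23 and 10.02 rpkm in Trp53R270H/R270H. Both Trp53flox/flox libraries were thus the highest, and replicate 1 had no low value as it did for Avil. The library kit keeps strand, but whether the counting used it is not given in the sources used here, so reads of Avil and Tsfm could be mixed.

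**Figure D2:**
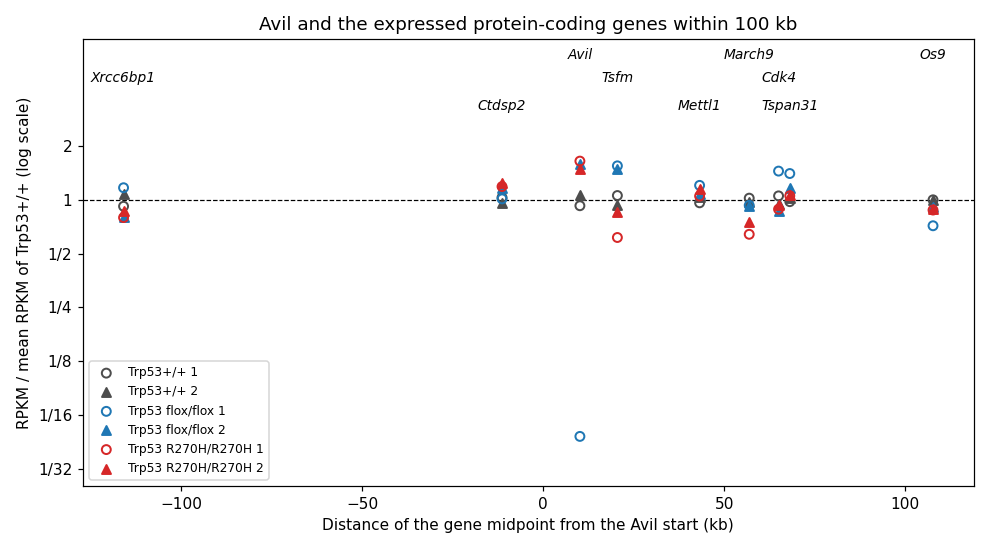
Expression of Avil and of the 8 genes within 100 kb that were above the floor in all 6 libraries, as rpkm divided by the mean rpkm of Trp53+/+ (log axis), against the distance of the gene midpoint from the start of Avil in kb. Avil in Trp53flox/flox replicate 1 is the single point far below 1, and for the 8 neighbours that library was 0.766 to 1.56 times the mean of the other 5.

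Trp53flox/flox replicate 1 held the lowest of the 6 values for 33.9% of the genes tested, but a drop from at least 4 rpkm in the other 5 libraries to the floor was rare. It was found for 40 of 8119 genes (0.493%) in that library, for 3 genes in Trp53flox/flox replicate 2, for 1 gene in Trp53R270H/R270H replicate 2 and for no gene in the other 3 libraries. With at least 10 rpkm in the other 5 libraries there were 6 such genes, named after their values were seen, and all were in Trp53flox/flox replicate 1. Besides Avil they were Gsta3, a glutathione transferase gene, Myl9, a myosin light chain gene, Slc9a3, a sodium-proton exchanger gene, Mtmr9, a myotubularin family gene, and Pnliprp2, a pancreatic lipase family gene. Mtmr9 measured 12.6 and 13.5 rpkm in Trp53+/+, 1 and 17.4 rpkm in Trp53flox/flox and 16.2 and 15.4 rpkm in Trp53R270H/R270H.

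Over the 6 libraries the genes whose log2(rpkm+1) followed that of Avil most closely were Spnb2 (Pearson r=0.9971), a spectrin gene, Trio (r=0.997), a guanine nucleotide exchange factor gene, and Mtmr9 (r=0.9964). This is a description of 6 points in which Trp53flox/flox replicate 1 is the low value, and 33 genes had r over 0.99. Spnb2 measured 42.6 and 45.2 rpkm in Trp53+/+, 22 and 49.7 rpkm in Trp53flox/flox and 52.4 and 47.4 rpkm in Trp53R270H/R270H.

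The 9 members were set beside a wider list of 53 genes, members included, arranged by what they do in tuft cells. At the floor in all 6 libraries were 30 of the 53, against 65.7% of the whole table, another 15 were above it in all 6, and 8 were above it in some. The genes above the floor throughout were largely ones that other intestinal epithelial cells also express, such as Vil1, Krt18, Sox9, Itpr3 and Cd24a. The filter left 17 genes, Avil among them. Of the taste-like signalling genes 9 of 12 were at the floor in all libraries, of the eicosanoid enzymes 3 of 5, of the cytokines and receptors 3 of 5, of the transcription factors 4 of 9, of the cytoskeletal genes 2 of 7, and of the kinases, adapters and surface proteins 9 of 15.

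Of the 17 genes tested, 1 was called higher and 0 lower in Trp53R270H/R270H against Trp53+/+, where 5.86% and 6.36% of all genes were called. The median log2 difference of the 17 was −0.18, against 0.03 over all genes tested. Between Trp53flox/flox and Trp53+/+ 1 was higher and 1 lower (4.38% and 6.9% of all genes), with a median of −0.36 against −0.02. Between Trp53R270H/R270H and Trp53flox/flox 2 were higher and 4 lower (13.6% and 11% of all genes), and both medians were 0.03.

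Ptgs1, the cyclooxygenase that starts prostaglandin synthesis, was the gene called against Trp53+/+ in both mutants. It measured 5.33 and 7.92 rpkm in Trp53+/+, 27.0 and 26.4 rpkm in Trp53flox/flox and 18.6 and 18.1 rpkm in Trp53R270H/R270H. The 3 genotypes thus did not overlap. Both libraries of each mutant were above both Trp53+/+ libraries for 15.6% of the 10042 genes tested. For Ptgs1 the log2 difference was 1.88 (s.e. 0.18, limma adjusted p=0.0105) in Trp53flox/flox and 1.37 (s.e. 0.18, limma adjusted p=0.0146) in Trp53R270H/R270H. These comparisons share the Trp53+/+ libraries. Alox5, Alox5ap and Ltc4s, the leukotriene enzymes of the same list, were at the floor throughout.

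Cd24a, which encodes a surface glycoprotein, fell in Trp53flox/flox. It measured 610 and 531 rpkm in Trp53+/+, 352 and 361 rpkm in Trp53flox/flox and 522 and 487 rpkm in Trp53R270H/R270H. The log2 difference was −0.67 (limma adjusted p=0.0353) against Trp53+/+, and Trp53R270H/R270H exceeded Trp53flox/flox by 0.50 (limma adjusted p=0.0433). Both calls were lost with weights for each genotype (limma adjusted p=0.226 and 0.285) and with only the 2 genotypes compared (0.13 and 0.125), and the latter also with median-of-ratios scaling (0.0531).

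Ascl2, a transcription factor of intestinal stem cells, had the largest log2 difference between the mutants among the genes of the list called there. It measured 21.1 and 17.1 rpkm in Trp53+/+, 38.8 and 28.4 rpkm in Trp53flox/flox and 8.16 and 10.8 rpkm in Trp53R270H/R270H. Trp53R270H/R270H differed from Trp53flox/flox by −1.72 on the log2 scale (limma adjusted p=0.00984), and its difference of −0.95 from Trp53+/+ missed the threshold (limma adjusted p=0.0512).

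Krt18, a keratin of simple epithelia, Il13ra1, a subunit of the IL-13 receptor, and Runx1, a transcription factor, were also lower in Trp53R270H/R270H than in Trp53flox/flox. Krt18 measured 813 and 791 rpkm in Trp53+/+, 1336 and 1130 rpkm in Trp53flox/flox and 702 and 706 rpkm in Trp53R270H/R270H (log2 difference between the mutants −0.80, limma adjusted p=0.0192). For Il13ra1 the values were 11.7 and 11.1 rpkm, 11.1 and 18.6 rpkm, and 6.31 and 7.01 rpkm in the same order, with a difference of −1.01 (limma adjusted p=0.0377). Runx1 differed by −0.66 (limma adjusted p=0.0326).

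Ptpn6, a phosphatase of immune cells and of tuft cells, was higher in Trp53R270H/R270H than in Trp53flox/flox by 0.76 (limma adjusted p=0.0144). It measured 11.0 and 11.0 rpkm in Trp53+/+, 8.86 and 7.89 rpkm in Trp53flox/flox and 15.6 and 14.1 rpkm in Trp53R270H/R270H. Plcg2 and Adh1, named after their values were seen, had the same drop to the floor in Trp53flox/flox replicate 1 as Avil. Plcg2, a phospholipase gene, measured 6.09 and 6.25 rpkm in Trp53+/+, 1 and 8.91 rpkm in Trp53flox/flox and 5.37 and 5.12 rpkm in Trp53R270H/R270H.

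The calls in the wider list depended on which libraries were fitted. With any 1 of the 4 Trp53+/+ and Trp53R270H/R270H libraries left out, the list had 0 genes called against Trp53+/+ in either mutant. In those fits few genes of the whole table were called, 0 to 113 of 10042 for Trp53R270H/R270H and 8 to 37 for Trp53flox/flox. Ptgs1 then had limma adjusted p-values of 0.0706 to 0.176 in Trp53R270H/R270H and 0.073 to 0.084 in Trp53flox/flox, with differences of 1.12 to 1.61 and 1.63 to 2.13. Between the mutants only the Ascl2 call was kept without a Trp53+/+ library, and none was kept without a Trp53R270H/R270H library. Without Trp53flox/flox replicate 1 the list had 11 genes called in Trp53R270H/R270H against Trp53+/+, 8 in Trp53flox/flox against Trp53+/+ and 12 between the mutants, and without Trp53flox/flox replicate 2 it had 12, 15 and 14, in fits that called 40.4% to 72.3% of all genes. Without Trp53flox/flox replicate 1 the calls named above were all kept. The log2 differences between the mutants were then −1.50 for Ascl2, −0.68 for Krt18, −1.36 for Il13ra1, −0.77 for Runx1, 0.84 for Ptpn6 and 0.48 for Cd24a, and those against Trp53+/+ were 1.87 for Ptgs1 and −0.65 for Cd24a in Trp53flox/flox.

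**Figure D3:**
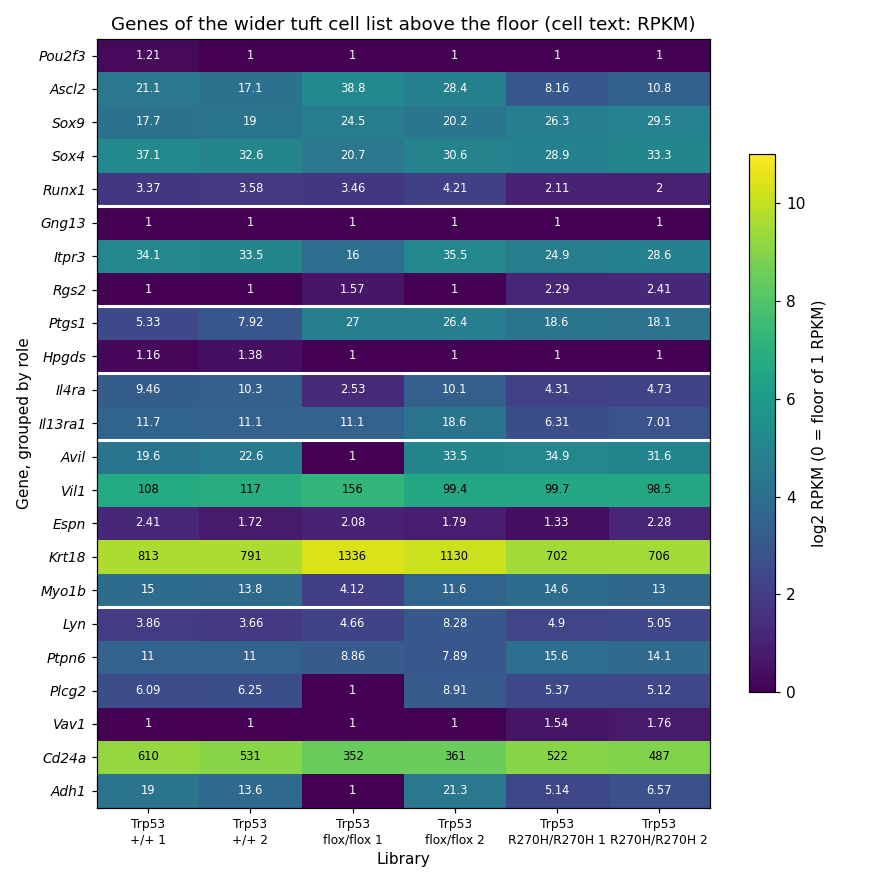
Expression of the 23 genes of the wider tuft cell list that were above the floor in at least 1 library, in rows grouped by role, in the 6 libraries in columns. Colour gives log2 rpkm, where 0 is the floor, and the printed number gives rpkm, for example 1 for Avil, Plcg2 and Adh1 in Trp53flox/flox replicate 1.

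The tissue was checked on markers of other cells. All 8 epithelial genes (Epcam, Cdh1, Krt8, Krt19, Cdx1, Cdx2, Cldn3 and Cldn7) were above the floor in every library, with a summed level of 1570 to 3290 rpkm, and so were 7 of 8 Paneth cell genes, 5 of 8 goblet cell genes and 5 of 6 stem cell genes. Of 9 enterocyte genes 4 were at the floor in all 6 libraries and 3 were above it in all. A floor throughout was thus not limited to genes of secretory types. Enteroendocrine genes, which mark another rare secretory type, were closer to the tuft cell genes, with 6 of 11 at the floor in all 6 libraries and 0 above it in all. Chgb, their most abundant gene, measured 10.8 and 7.41 rpkm in Trp53+/+, 1 and 2.15 rpkm in Trp53flox/flox and 1 rpkm in both Trp53R270H/R270H libraries, and was called lower in both mutants (limma adjusted p=0.0223 for Trp53flox/flox and 0.0122 for Trp53R270H/R270H). Chgb thus fell to the floor in Trp53R270H/R270H, where Avil did not.

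Paneth cell genes were lower in the mutants, 5 of 8 in Trp53R270H/R270H with 1 higher, and 4 of 8 in Trp53flox/flox, where 6.36% and 6.9% of all genes were called lower. For Trp53R270H/R270H none of these calls nor that of Chgb was made without Trp53+/+ replicate 1, Trp53+/+ replicate 2 or Trp53R270H/R270H replicate 1, since those fits called 0 genes. The Trp53flox/flox calls of the Paneth cell genes and of Chgb were not followed with a library left out. Defa17, a defensin gene, measured 96.2 and 80.1 rpkm in Trp53+/+, 8.50 and 11.7 rpkm in Trp53flox/flox and 19.2 and 18.0 rpkm in Trp53R270H/R270H. Defa17 was thus low in both Trp53flox/flox libraries, whereas Avil was low in 1 of them.

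Blood cells share several tuft cell genes. Of 11 blood cell markers 9 were at the floor in all 6 libraries, Ptprc included. The summed level of the list was 14.2 to 21.4 rpkm, in which each gene at the floor counts 1 rpkm. Lcp1 was its highest gene. Mast cells express Alox5 and Gfi1b too, and 5 of 8 mast cell markers (Cpa3, Mcpt1, Mcpt2, Fcer1a and Ms4a2) were at the floor throughout. The sum of that list, counted in the same way, was 8 to 32.7 rpkm. Tpsb2, a mast cell tryptase gene, measured 4.19 and 6.12 rpkm in Trp53+/+, 1 and 1.20 rpkm in Trp53flox/flox and 22.8 and 16.4 rpkm in Trp53R270H/R270H. Against Trp53+/+ it was called lower in Trp53flox/flox (log2 difference −1.53, limma adjusted p=0.0245) and higher in Trp53R270H/R270H (1.74, limma adjusted p=0.0149). It was also called between the mutants (3.28, limma adjusted p=0.00257). The Trp53R270H/R270H call of Tpsb2 against Trp53+/+ was likewise not made with Trp53+/+ replicate 1, Trp53+/+ replicate 2 or Trp53R270H/R270H replicate 1 left out. Its other calls were not followed with a library left out. Kit, a receptor of mast cells and other cells, went the other way in Trp53R270H/R270H against Trp53+/+. It measured 7.54 and 4.30 rpkm in Trp53+/+, 1 and 4.12 rpkm in Trp53flox/flox and 1.09 and 1 rpkm in Trp53R270H/R270H. Kit was not called (limma adjusted p=0.081 for Trp53R270H/R270H against Trp53+/+). The part of other cells in the levels of Avil was not tested.

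**Figure D4:**
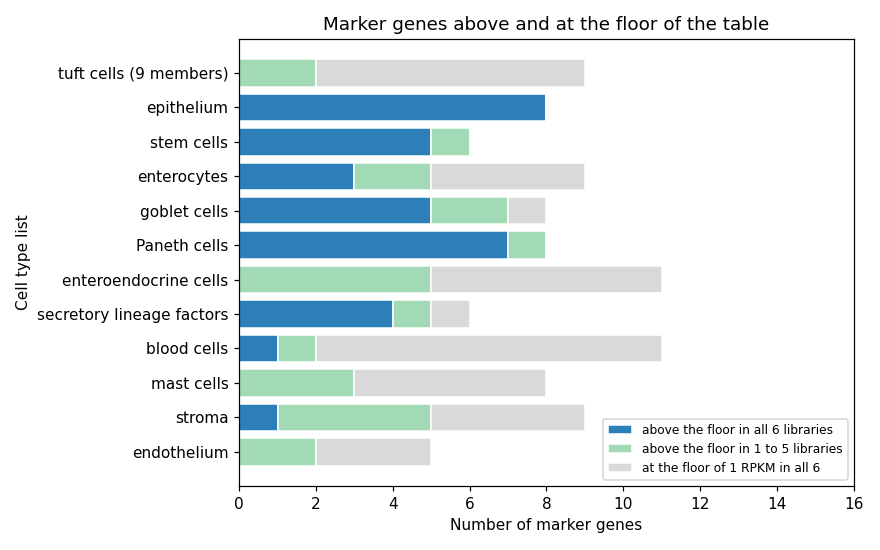
Number of genes of each cell type list that were above the floor of 1 rpkm in all 6 libraries, in 1 to 5 libraries, or in none. The tuft cell bar holds 9 genes with 7 at the floor in all libraries, while all 8 epithelial genes are above it throughout.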

How the data were processed

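The authors extracted poly(A) RNA from the organoids, prepared stranded libraries, sequenced them on an Illumina HiSeq, mapped the reads to mm10 and calculated the deposited RPKM values with StrandNGS. Its version, gene annotation, strand use and read filters are not given in the sources used here. The smallest value in the table is 1, which from the values looks like a minimum set by the software or the authors, and what lies under it was not recorded.

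Here log2(RPKM + 1) was fitted in R 4.3.3 with limma 3.58.1 (lmFit, eBayes with trend) for all 6 libraries, without a block, over the 10042 genes that reached 4 RPKM in some library. Tests were two-sided, with Benjamini-Hochberg adjustment over those genes at 0.05, and the script was tested on simulated data. Python 3.11.15, numpy 2.4.6, pandas 2.3.3 and matplotlib 3.10.9 were used for places, promoters and figures. Depth was estimated from the steps of 1 read between values of snoRNA genes under 230 nt with fewer than 30 reads. Intervals of counting error were not available, since the table holds no counts.

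The labels number the replicates, but those of different genotypes came from different mice. The members and the lists were chosen with earlier results of these data known. Named are the members, the genes of the wider list called in at least 1 comparison, the 3 genes most like a tested member, and Trp53. Genes said to be named after their values were seen are added. Genes of the other cell type lists were also named after their values were seen, and not all called ones are described. Olfm4, of the stem cell list, is 1 left out. It was higher in Trp53R270H/R270H than in Trp53+/+ (log2 difference 2.49, limma adjusted p=0.0199). The alternatives were other filters, pseudocounts and scaling, replicate blocks, no trend, weights for each genotype, fits of 2 genotypes and each library left out.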

Additional observations from a re-analysis of the deposited data

How the results depend on the processing

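The 8 members under the filter have no test, and with a filter of any value above 1 RPKM Pou2f3 was tested too and gave −0.07 for Trp53R270H/R270H against Trp53+/+ (limma adjusted p=0.475). Members called numbered 0 in each comparison; for Trp53R270H/R270H against Trp53+/+ the count was 1 with only the 2 genotypes compared, where the Avil difference was 0.63, and in all 3 comparisons it was 0 to 1 as each library was left out. With a library left out the Avil difference ranged from 0.53 to 0.73 for Trp53R270H/R270H against Trp53+/+, from −3.46 to 0.65 for Trp53flox/flox against Trp53+/+, and from −0.0133 to 4.10 for Trp53R270H/R270H against Trp53flox/flox. Without Trp53flox/flox replicate 1 the last pair turned to 0.65 and −0.0133, and without Trp53flox/flox replicate 2 Runx1 turned to −0.0051 (range with a library left out −0.0051 to 0.2198) and Il13ra1 to −0.0314 (−0.0314 to 0.6639) for Trp53flox/flox against Trp53+/+. The wider list had 1 gene called for Trp53R270H/R270H against Trp53+/+, which became 5 with the filter above 1 RPKM, 2 with 4 RPKM in both libraries of a genotype, with median-of-ratios scaling and with no trend, 11 with weights for each genotype and with 2 genotypes, and 0 to 12 with a library left out. For Trp53flox/flox against Trp53+/+ the 2 genes became 0 with weights and with 2 genotypes, and 0 to 15 with a library left out; for Trp53R270H/R270H against Trp53flox/flox the 6 became 0 with weights, 1 with 2 genotypes and 0 to 14 with a library left out.

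The replicate numbers were not taken to pair the libraries: deviations of same-numbered libraries correlated at 0.117, −0.291 and −0.196. With the replicate block, Trp53flox/flox against Trp53+/+ had 1 gene of the wider list called and Trp53R270H/R270H against Trp53flox/flox 2, and over all genes the block left 550, 280 and 1156 calls of 1227, 1133 and 2469. The block ended both Cd24a calls and the calls of Runx1, Il13ra1 and Krt18 between the mutants (limma adjusted p=0.0513 to 0.0901). With the Trp53R270H/R270H numbers exchanged in the block, 2 genes of the wider list were called for Trp53R270H/R270H against Trp53+/+, and 941, 873 and 2276 over all genes. Weights for each genotype gave 5987, 150 and 534 calls, fits of 2 genotypes 5721, 47 and 378, and the filter above 1 RPKM 1907 for Trp53R270H/R270H against Trp53+/+. The main fit used a spread shared by the genotypes. The root mean square s.d. of log2 values between replicates was 0.458 in Trp53flox/flox, 0.0953 in Trp53+/+ and 0.126 in Trp53R270H/R270H. The cause of the changes in the number of calls was not tested. Values under 1 RPKM are not recorded, so a change below the floor could not be seen.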

Other observations

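Some tuft cell genes of the wider list appeared at low levels in some libraries, as values with no test, and were named after their values were seen. Vav1, a guanine nucleotide exchange factor gene of blood and tuft cells, measured 1.54 and 1.76 rpkm in Trp53R270H/R270H and 1 rpkm in the other 4 libraries. Hpgds, a prostaglandin D synthase gene, measured 1.16 and 1.38 rpkm in Trp53+/+ and 1 rpkm in the other 4. Rgs2, a regulator of G protein signalling, measured 2.29 and 2.41 rpkm in Trp53R270H/R270H, 1.57 rpkm in Trp53flox/flox replicate 1 and 1 rpkm elsewhere.

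Hdc, the histamine-forming enzyme of mast cells and of some other cells, measured 3.78 and 3.57 rpkm in Trp53R270H/R270H and 1 rpkm in the other 4 libraries. Vim, a mesenchymal filament gene, measured 69.0 and 50.0 rpkm in Trp53+/+, 71.6 and 19.8 rpkm in Trp53flox/flox and 306 and 284 rpkm in Trp53R270H/R270H. Vim was called higher in Trp53R270H/R270H than in Trp53flox/flox (log2 difference 2.93, limma adjusted p=0.0261). It was not called against Trp53+/+ (2.31, limma adjusted p=0.0622). The other 8 stroma markers, collagens among them, were at 1 rpkm in both Trp53R270H/R270H libraries. In Trp53flox/flox replicate 2 alone Col1a1 (2.44 rpkm), Pdgfrb (1.36 rpkm), Pdgfra (1.23 rpkm) and Dcn (1.05 rpkm) were above the floor. Of the endothelial markers, Tek, a receptor gene, measured 4.003 and 3.944 rpkm in Trp53+/+, 1 and 21.4 rpkm in Trp53flox/flox and 1.16 and 1.13 rpkm in Trp53R270H/R270H. Cdh5, a cadherin gene, measured 8.88 and 9.35 rpkm in Trp53+/+, 1 and 3.30 rpkm in Trp53flox/flox and 1.04 and 1 rpkm in Trp53R270H/R270H, and was called lower in both mutants (limma adjusted p=0.0411 for Trp53flox/flox and 0.0224 for Trp53R270H/R270H). The Trp53R270H/R270H call of Cdh5 was not made with Trp53+/+ replicate 1, Trp53+/+ replicate 2 or Trp53R270H/R270H replicate 1 left out. Its Trp53flox/flox call and the Vim call were not followed with a library left out.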
